A study of Caenorhabditis elegans with 2 samples.

Results

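CEH-48 bound many stretches of DNA that lie in the promoters of more than 1 gene, most of them between gene starts that point away from each other. A binding site was taken as the summit of a peak that the authors called reproducible (an IDR peak). Each protein-coding gene of Ensembl release 115 was given a promoter window that starts 1000 bp before its 5′ end and ends 200 bp past it. Summits in the windows of at least 2 genes and over 200 bp from any tRNA gene were the members, and 314 of the 1840 IDR peaks qualified. Another 600 peaks lay in the window of 1 gene and serve as the comparison. Of the 314 members, 300 lay between or beside divergent genes (the minus-strand 5′ end to the left of the plus-strand one), 12 lay at genes on the same strand, and 2 lay where genes on opposite strands overlap at their 5′ ends.

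The peaks came from chromatin immunoprecipitation with sequencing (ChIP-seq) of whole late embryos of mixed sex, 3.5 hours after synchronization by egg bleaching. The strain, OP631 (unc-119(tm4063) III; wgIs631), carries a transgene for CEH-48 with a GFP-FLAG tag on its C-terminus. The labels' description names an anti-GFP antibody, while their antibody tag reads ceh-48. There was 1 group of 2 biological replicates. No untagged strain and no other stage was analysed here, and all region lists were made with the same further input, so sites that any tagged protein would give cannot be told apart from CEH-48 sites. Whole embryos mix all tissues, so signal from many cells and strong signal from few cells cannot be told apart. Each region carries a signal value from the authors' peak caller, whose scale is not stated. No read numbers were given, so the depth is unknown. The list of replicate 1 has 28372 regions, and those of replicate 2 and of both pooled have 30000 each.

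CEH-48 is a transcription factor of the ONECUT family, whose members bind DNA through a cut domain and a homeodomain, and in Caenorhabditis elegans it is made throughout the nervous system. A divergent promoter is a stretch of DNA between the starts of a pair of genes transcribed away from each other, so that a protein bound there sits upstream of both. In this nematode the 5′ ends of many gene records mark the splice-leader site or the start codon and not the start of transcription, and neighbouring genes on the same strand can be transcribed together as an operon.

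The summits of 9 members are printed to show what the bound sequence looked like. Each is the 100 bp centred on the summit, on the plus strand of WBcel235 (ce11), with RefSeq's reference sequence. Capitals mark ATCGAT, the core that ONECUT proteins bind, and ACCGTA, which reads TACGGT on the other strand. The first 3 hold the core, the next 2 hold both 6-mers, the sixth and seventh hold ACCGTA, rsp-1/rsp-2 holds neither, and rpl-23/swp-1 is a same-strand pair with 2 copies of the core. The spk-1/rheb-1 summit was picked after its values were seen.
tasp-1/K01G5.10 (chrIII:10759148-10759247): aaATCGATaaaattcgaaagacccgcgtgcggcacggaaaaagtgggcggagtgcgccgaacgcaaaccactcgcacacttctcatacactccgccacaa
apb-1/mdt-19 (chrIII:2597128-2597227): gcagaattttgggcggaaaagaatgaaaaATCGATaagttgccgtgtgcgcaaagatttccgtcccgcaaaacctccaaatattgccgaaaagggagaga
sbt-1/num-1 (chrV:20828996-20829095): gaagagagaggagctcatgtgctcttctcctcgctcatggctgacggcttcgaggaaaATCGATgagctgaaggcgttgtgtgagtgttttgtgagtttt
ZK643.2/ZK643.5 (chrIII:8956400-8956499): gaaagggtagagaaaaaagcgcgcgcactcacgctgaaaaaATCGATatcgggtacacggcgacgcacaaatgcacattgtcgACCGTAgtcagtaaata
spk-1/rheb-1 (chrIII:9456304-9456403): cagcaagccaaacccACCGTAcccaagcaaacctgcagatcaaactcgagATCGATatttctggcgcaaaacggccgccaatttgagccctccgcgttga
cap-2/gmps-1 (chrII:10868939-10869038): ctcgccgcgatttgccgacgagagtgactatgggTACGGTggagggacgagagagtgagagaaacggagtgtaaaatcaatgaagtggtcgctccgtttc
rpl-15/K11H12.8 (chrIV:654871-654970): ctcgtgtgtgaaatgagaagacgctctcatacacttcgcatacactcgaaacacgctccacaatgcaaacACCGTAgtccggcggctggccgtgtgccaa
rsp-1/rsp-2 (chrII:11453109-11453208): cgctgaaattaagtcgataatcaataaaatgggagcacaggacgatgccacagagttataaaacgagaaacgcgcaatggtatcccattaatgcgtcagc
rpl-23/swp-1 (chrIII:5706408-5706507): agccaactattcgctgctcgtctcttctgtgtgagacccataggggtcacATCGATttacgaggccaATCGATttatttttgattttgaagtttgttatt

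The strongest divergent members stood at genes of many functions. The first was at tasp-1, a threonine aspartase gene, and K01G5.10, on chromosome III from 10759013 to 10759394, with a pooled signal of 1038 (249 in replicate 1 and 789 in replicate 2). Its summit lay 109 bp upstream of tasp-1 and 676 bp upstream of K01G5.10, in intergenic sequence that the reference marks as repeat. The second was at ceh-38, itself an ONECUT gene, and the paracaspase gene malt-1, on chromosome II from 6951495 to 6951919, with a pooled signal of 818 (232 in replicate 1 and 585 in replicate 2). There the summit lay not between the genes but in an intron of ceh-38, 186 bp past its 5′ end and 412 bp upstream of malt-1.

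Next came C37A2.8/E02D9.1 (chromosome I, 6799447 to 6799808), where the pooled signal was 800.2 (218 in replicate 1 and 586 in replicate 2), and the summit lay 40 bp upstream of one gene and 738 bp upstream of the other. It held 2 copies of the core. At ZK643.2 and ZK643.5 (chromosome III, 8956298 to 8956593) it was 702 (212 in replicate 1 and 498 in replicate 2). The fifth site, on chromosome III from 10318852 to 10319171, lay in the 5′ UTR of unc-69, a gene for axon outgrowth, and in the windows of ostf-4 and of unc-50, a gene for acetylcholine receptor traffic, with a pooled signal of 691 (214 in replicate 1 and 482 in replicate 2). No core lay in its 100 bp.

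Of the next 5 members, 2 had 5′ ends that nearly touched. The gap was 91 bp between ears-2, a mitochondrial glutamyl-tRNA synthetase gene, and uncp-18 (chromosome IV, 390356 to 390639), where the pooled signal was 653 (160.4 in replicate 1 and 489 in replicate 2). It was 179 bp between spe-48, a gene with a role in sperm, and Y51F10.11 (chromosome I, 1958450 to 1958736), where it was 579.8 (162 in replicate 1 and 414 in replicate 2). The other 3 gaps were wider. At gpc-2, a G protein gamma subunit gene, and hrpf-1, an hnRNP F gene (chromosome I, 6757129 to 6757420), the gap of 1414 bp held signals of 569.7 (pooled), 154 (replicate 1) and 409.6 (replicate 2). Across the 1018 bp between apb-1, which encodes a clathrin adaptor subunit, and the Mediator gene mdt-19 (chromosome III, 2597034 to 2597371), the pooled signal was 561, with 155 in replicate 1 and 405 in replicate 2. In the 475 bp between cap-2, an actin capping protein gene, and gmps-1, for GMP synthetase (chromosome II, 10868839 to 10869120), it was 558, with 156 in replicate 1 and 401 in replicate 2.

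All 10 of these members were among the 1840 highest regions of each replicate's own list. Of the 10, 6 held the core, 4 lay in repeat-marked sequence and 8 lay between the 5′ ends.

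The 12 same-strand members were of mixed kinds. In 6 of them the second gene began inside the record of the first, and in the other 6 it began 15 to 114 bp past the end of the first. The highest was at rpl-23, a ribosomal protein gene of the large subunit, and swp-1 (chromosome III, 5706325 to 5706574), with a pooled signal of 479.6 (119.6 in replicate 1 and 357 in replicate 2); its summit lay 331 bp upstream of rpl-23 and 933 bp upstream of swp-1. The second was at tub-2, a Tubby-related gene, and Y71G12A.5 (pooled 414, replicate 1 90.6, replicate 2 323), with the summit 56 bp past the 5′ end of tub-2. The third was at the kinesin-II motor gene klp-11 and F20C5.11 (pooled 366, replicate 1 94.8, replicate 2 262). Most sat upstream of both genes: 10 of the 12 summits lay before both 5′ ends.

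Then came C27F2.9 and vps-22, an ESCRT-II gene of endosomal sorting, with signals of 256 (pooled), 75.9 (replicate 1) and 177 (replicate 2). At rps-28, for a small-subunit ribosomal protein, and Y41D4B.4 the signals were 229.9 (pooled), 67.2 (replicate 1) and 164 (replicate 2). At Y46G5A.47 and Y46G5A.18 they were 179 (pooled), 44.3 (replicate 1) and 138 (replicate 2). The other 6 same-strand members had pooled signals from 85.7 to 167, and 9 of the 12 were among the highest regions of both replicates. The opposite-strand overlapping members were F30F8.5/taf-5, at a TFIID subunit gene (pooled signal 233.9), and C17D12.5/spe-9 (87.9).

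Promoter sequence shared between genes held more CEH-48 summits than its length would give. Shared bases made up 11.0% of all promoter window bases but held 314 of the 914 promoter summits (34.4%, 95% interval 31.3 to 37.5%), a 3.13-fold excess (two-sided exact binomial test, Benjamini-Hochberg adjusted over 13 tests, p = 4.15e-77). Per megabase (Mb) this was 133 summits (exact Poisson interval 119 to 149) in shared sequence and 31.4 in single-gene sequence. With bases outside genes and within 300 bp of the nearest 5′ end alone, a restriction chosen after seeing the data, the excess was 2.51-fold (exact binomial adjusted p = 2.53e-44). Intervals and p-values here cover the counting of peaks only. They do not cover differences between embryo preparations, and peaks that lie close together or share genes are not independent.

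Shared sequence had the higher density in every distance bin outside genes, and the intervals of both kinds overlapped only at 500 to 999 bp. At 0 to 99 bp from the nearest 5′ end it held 244 summits per Mb, against 56.8 in single-gene sequence. At 100 to 199 bp, where both densities were highest, they were 309.7 in shared and 77.2 in single-gene sequence. Farther out the densities declined, to 174 in shared and 58.6 in single-gene sequence at 200 to 299 bp and to 126 in shared and 41.0 in single-gene sequence at 300 to 499 bp. At 500 to 999 bp, with 9 summits in shared sequence, they were 41.6 in shared and 22.2 in single-gene sequence. Inside genes the densities were 43.8 in shared and 18.2 in single-gene sequence.

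**Figure D1:**
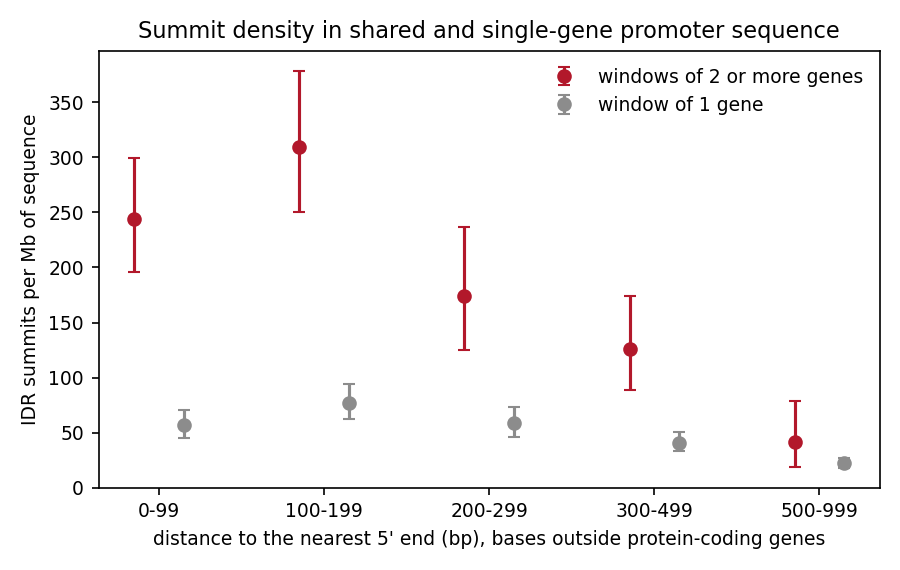
CEH-48 summits per Mb of promoter sequence outside protein-coding genes (y axis), by distance to the nearest 5′ end in bp (x axis), for sequence in the windows of 2 or more genes (red, left) and of 1 gene (grey, right); bars are 95% exact Poisson intervals. Shared sequence lies above single-gene sequence in each bin out to 499 bp, with 309.7 against 77.2 summits per Mb at 100 to 199 bp.

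Regions of the pooled list that missed the IDR threshold gave a background measured in the same embryos. Of the 6336 such regions in promoter windows over 500 bp from any IDR summit, 956 lay in shared windows (15.1%), against 34.4% of IDR summits (Fisher's exact test, two-sided; odds ratio 2.95, adjusted p = 2.41e-39). Their density was 405 per Mb in shared and 282 per Mb in single-gene sequence, 1.44-fold higher in shared sequence. For IDR summits the same ratio of densities was 4.24. Sub-threshold densities, here and below, were taken over all bases, also those within 500 bp of IDR summits, where none could be counted. Such bases are more frequent where summits are denser. This lowers the sub-threshold share and density in shared sequence by an amount that was not measured.

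Divergent sequence accounted for nearly all of the shared sites. Divergent members were 300 of the 312 divergent and same-strand members (96.2%), against 88.4% of the bases of these kinds, a ratio of 1.09 (two-sided exact binomial adjusted p = 5.54e-06). The density was 145 summits per Mb (interval 129 to 162) in divergent sequence and 43.9 per Mb (22.7 to 76.7) in same-strand sequence. Same-strand sequence thus had an interval that reached down below the 31.4 per Mb of single-gene sequence. Sub-threshold regions were closer together, at 407 per Mb in divergent and 377 per Mb in same-strand sequence.

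Across all divergent gene pairs, a minority had a CEH-48 summit in the zone where both windows overlap. There were 2560 such pairs, and 295 held a summit (11.5%, interval 10.3 to 12.8%), 5 of them more than 1. By the gap between the 5′ ends, the share was 7.41% of 54 pairs under 100 bp and 7.73% of 194 pairs at 100 to 199 bp. It was 17.3% of 474 pairs at 200 to 399 bp, 15.9% of 593 at 400 to 699 bp and 16.7% of 430 at 700 to 999 bp. It was 3.44% of the 815 pairs at 1000 to 1999 bp, where the zone in both windows shrinks as the gap grows. The zone is also short in the shortest gaps, so these shares are not per length. Per Mb of zone there were 162 summits under 100 bp (on 4 summits), 139 at 100 to 199 bp and 251 at 200 to 399 bp. Wider gaps had 172 at 400 to 699 bp, 151 at 700 to 999 bp and 61.3 at 1000 to 1999 bp. Pairs with the core somewhere in the zone held a summit in 193 of 734 cases (26.3%, interval 23.1 to 29.6%), against 102 of 1826 pairs without it (5.59%, 4.58 to 6.74%). The pairs with the core lay above those without it in each gap bin, although the intervals overlapped in the bin under 100 bp. The length of the zone was not held fixed in this split, and no test of it was made.

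**Figure D2:**
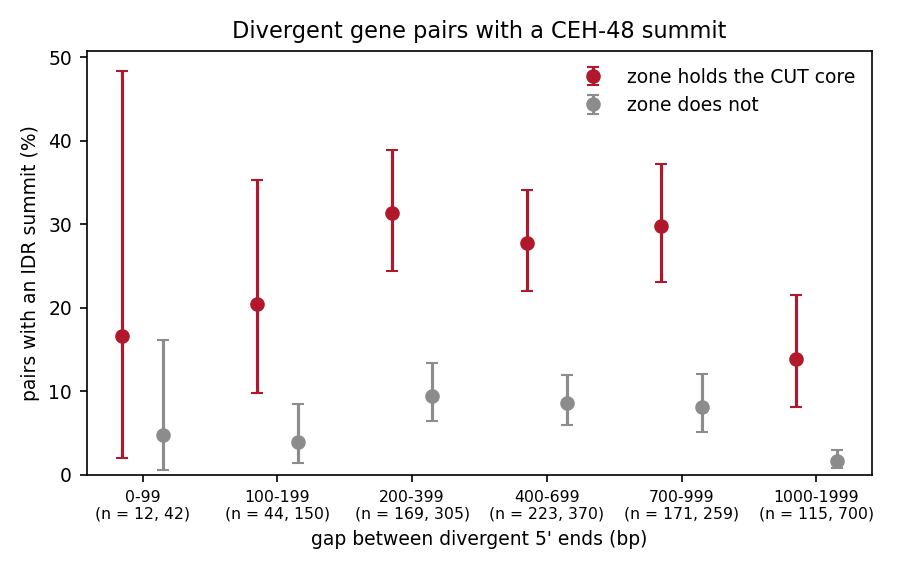
Share of divergent gene pairs with a CEH-48 IDR summit in percent (y axis), by the gap between their 5′ ends in bp (x axis), for pairs whose zone holds the CUT core (red, left) or does not (grey, right); bars are 95% exact binomial intervals and n gives the pairs with and without the core. At 200 to 399 bp the shares are 31.4% with the core and 9.51% without it.

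Seen from the genes, those with a divergent neighbour were more often bound. Of the 3491 protein-coding genes with a divergent neighbour whose 5′ end lay within 1000 bp, 544 had a summit in their window (15.6%, interval 14.4 to 16.8%), against 679 of the 16482 other genes (4.12%, 3.82 to 4.43%). A summit where the windows of a pair overlap counts for both genes, so part of this difference follows from the window rule. The intervals treat such genes as independent, and the difference was not tested. The 314 members touched 643 genes, 3.22% of the 19973 protein-coding genes. At 290 members the window count was 2 genes, at 23 it was 3, and at 1, Y62E10A.23/mdt-9/Y62E10A.20/lsm-3 (pooled signal 181), it was 4. Only 5 sets of genes had more than 1 member, 10 members in all.

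Between divergent genes, the summits lay mostly in the gap. Of the 276 divergent members with exactly 2 genes, 248 had the summit between the 5′ ends (89.9%, interval 85.7 to 93.2%), where 69.4% of eligible bases lie, a ratio of 1.29 (two-sided exact binomial adjusted p = 2.21e-15). The gap had a median of 538.5 bp, with a range from 19 to 1686 bp. The summit lay a median of 142.5 bp from the nearer 5′ end (quartiles 67.5 and 221.75) and 408 bp from the farther one. In 101 of the 276 members (36.6%) it lay within 100 bp of a 5′ end, and in 41 (14.9%) within 200 bp of both. Single-gene summits lay a median of 231 bp from the nearest 5′ end. The 142.5 bp is the smaller of 2 distances that the window rule limits, so these medians are not like for like.

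The summits also leaned to the middle of the gap. Among 243 members with the summit in a gap of at least 150 bp, 102 lay in its central 33.3% (42.0%, interval 35.7 to 48.5%), 78 to the left of it and 63 to the right, a ratio of 1.26 (exact binomial adjusted p = 0.00962). This call was lost with longer windows (2000 bp before to 500 bp past the 5′ end), where the ratio was 1.05 (exact binomial adjusted p = 0.648). Members had to lie within 1000 bp upstream of both 5′ ends, so in longer gaps only the middle part could hold one. The comparison with 33.3% did not allow for this. In gaps of at most 1000 bp, a limit added after seeing the data, all of the gap was eligible. There 88 of 217 summits lay in the central 33.3%, a ratio of 1.22 (exact binomial adjusted p = 0.0476). An example at the very middle was rsp-1/rsp-2, a pair of genes for SR splicing proteins on chromosome II (11453047 to 11453278), with the summit 203 bp from one 5′ end and 204 bp from the other. Its signals were 310.5 (pooled), 91.4 (replicate 1) and 219 (replicate 2).

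**Figure D3:**
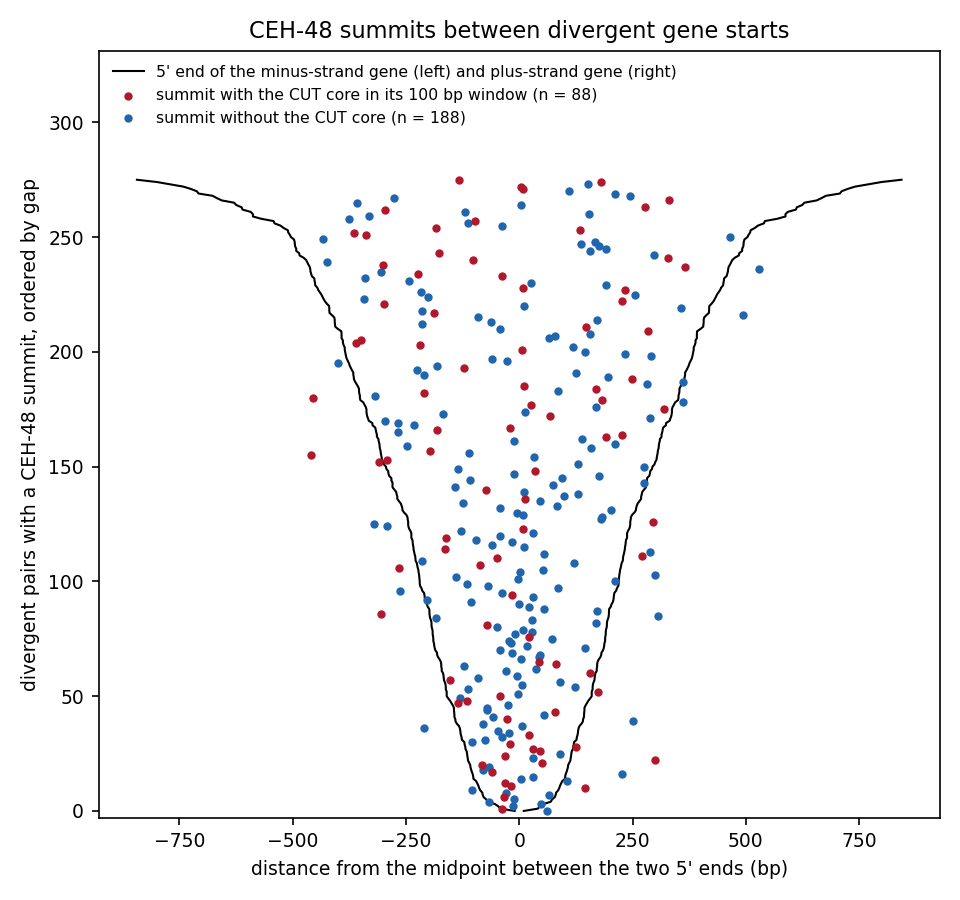
CEH-48 summits at 276 divergent gene pairs, 1 row per member ordered by the gap (y axis), at their distance from the midpoint of the gap in bp (x axis); black lines mark the 5′ ends, and points are summits with (red) or without (blue) the CUT core in 100 bp. Of these summits 248 lie between the lines and 28 outside them.

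Most members lay outside annotated gene records. By the annotation, 273 of the 314 summits were intergenic (86.9%), 27 in a 5′ UTR (8.60%), 8 in a coding exon (2.55%) and 6 in an intron (1.91%). Of the single-gene summits 450 of 600 were intergenic (75%), 50 in a 5′ UTR, 15 in a coding exon, 65 in an intron and 20 in a 3′ UTR. The members just inside the window limit were C18D11.3/maa-1 at 990 bp from the farther 5′ end (pooled signal 105), C50B6.3/nasp-2 at 988 bp (141) and R107.5/cls-2 at 986 bp (123). Just outside were cul-2/dyf-2 at 1008 bp (129), ubr-1/npp-11 at 1016 bp (104) and sre-50/C50E10.1 at 1024 bp (97.1).

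No difference in signal between shared and single-gene promoters was detected. Pooled signals ran from 85.2, at the ribosomal and collagen genes rpl-5/col-38, to 1038, with a median of 141 and quartiles of 104.6 and 220.5. In single-gene promoters they ran from 85.3 to 1044 with a median of 139. The share above the median of all promoter summits was 50.3% of members (158 of 314, interval 44.6 to 56.0%) and 49.8% of single-gene summits (299 of 600, 45.8 to 53.9%), an odds ratio of 1.02 (Fisher's exact adjusted p = 1). For divergent members it was 149 of 300 (49.7%) and for same-strand members 8 of 12 (66.7%), an odds ratio of 0.493 (Fisher's exact adjusted p = 0.546). Without replicate 2 the odds ratio was 1.11 and with the longer windows 1.66, neither past the threshold. With 12 same-strand members, the interval of their share ran from 34.9 to 90.1%, so a sizeable difference would not have been detectable.

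Both replicates held most members. Among the 1840 highest regions of each list, replicate 1 held 238 of the 314 members (75.8%) and replicate 2 held 289 (92.0%), both held 217 (69.1%) and neither held 4. For single-gene summits both held 408 of 600 (68%), an odds ratio of 1.05 (Fisher's exact adjusted p = 0.904). The median signal was 40.7 in replicate 1 and 102 in replicate 2 for members, against 39.7 in replicate 1 and 104.8 in replicate 2 for single-gene summits. Across the 301 members matched within 100 bp in both lists, the replicate signals had a Spearman correlation of 0.720 and a Pearson correlation of 0.780 on the log2 scale. Members are IDR peaks, called reproducible from this same 1 pair of libraries with a shared input. Agreement between the replicates was thus part of how members were chosen, so these values are a description. The weakest member, rpl-5/col-38 (chromosome II, 8569333 to 8569702), had signals of 85.2 (pooled), 16.6 (replicate 1) and 71.7 (replicate 2).

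**Figure D4:**
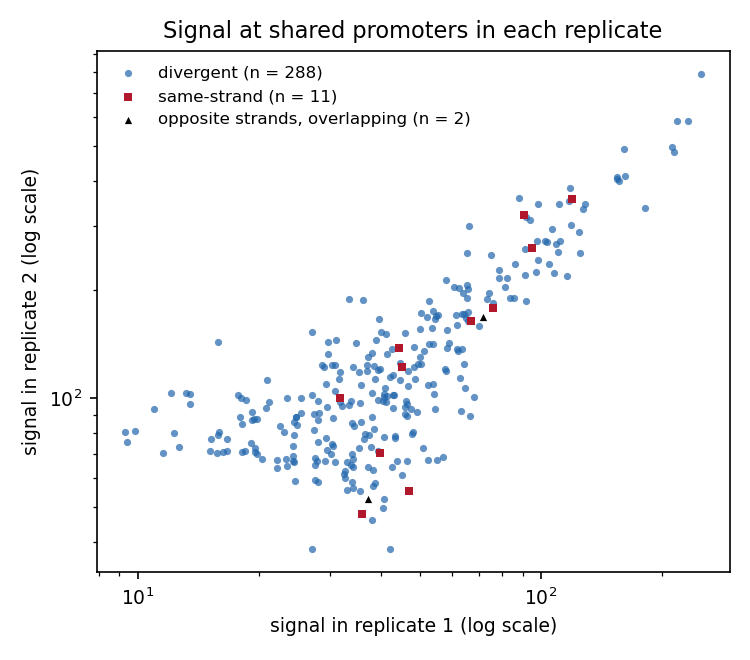
Signal of 301 members in replicate 1 (x axis) and replicate 2 (y axis), both on log scales and in the peak caller's own units; points are divergent (blue circles), same-strand (red squares) and opposite-strand overlapping members (black triangles). The members run from low to high signal together in both replicates, with the widest scatter at low signal.

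The members were spread over all 6 nuclear chromosomes, with the fewest on X. Per Mb of shared promoter sequence, density was highest on chromosome III (74 members, 204 per Mb) and chromosome I (77, 195 per Mb). It was 129 per Mb on II (56 members) and on IV (53), 96.1 on X (15) and 64.9 on V (39). Single-gene sequence had 41.0 summits per Mb on III, 46.9 on I, 27.1 on II, 27.9 on IV, 42.8 on X and 16.2 on V. Shared over single-gene density was thus 4.98 on III and between 4.01 and 4.77 on the other autosomes, but 2.25 on X. No test of this difference between chromosomes was made.

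The CUT core was enriched at the shared summits, yet less frequent there than at single-gene summits. ATCGAT, which is its own reverse complement, lay in the 100 bp around 104 of the 314 summits (33.1%, interval 27.9 to 38.6%), against 51 of 628 flanking windows, centred 500 bp away (8.12%) (Fisher's exact adjusted p = 1.55e-20, odds ratio 5.60). At single-gene summits it lay in 257 of 600 windows (42.8%, 38.8 to 46.9%), so the odds ratio of shared over single-gene was 0.661 (Fisher's exact adjusted p = 0.00955). Counting ATCGAT or ATTGAT on either strand gave 163 of 314 shared and 391 of 600 single-gene windows. That odds ratio was 0.577 (Fisher's exact adjusted p = 0.000253). The difference in ATCGAT missed the threshold with 200 bp windows (odds ratio 0.731, Fisher's exact adjusted p = 0.0559), among the 920 IDR peaks with the highest signal (0.669, adjusted p = 0.0915) and without replicate 2 (0.726, adjusted p = 0.0668). It passed in the other settings tried. Odds ratios there ran from 0.570 (60 bp windows, Fisher's exact adjusted p = 0.000686) to 0.696 (summits near tRNA genes kept, adjusted p = 0.0244). Of all positions in promoter windows, 4.63% of those in shared and 3.47% of those in single-gene sequence had the core within a 100 bp window. Sub-threshold regions had it in 10.8% of shared and 10.1% of single-gene windows.

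Where the core was present, it was mostly a single copy. It was found once at 98 members and in 2 copies at 6, while 35 of the single-gene summits had 2 or more. The median distance from the summit to the nearest copy was 19 bp, and it was within 20 bp at 57 of the 104 members (54.8%); at single-gene summits this median was 14 bp. The base on each side was A in 53 of 110 copies, as in the tasp-1/K01G5.10 and apb-1/mdt-19 sequences above, read on either strand. Seen from the sites, 113 of the 1202 copies in shared promoter sequence had an IDR summit within 50 bp (9.40%, interval 7.81 to 11.2%), against 318 of 7321 copies in single-gene sequence (4.34%, 3.89 to 4.84%). These shares do not allow for the summit density of all such sequence, which was 4.24 times as high in shared sequence (133 against 31.4 per Mb). They thus do not show that the core is bound more readily there.

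Members with the core had the higher signal. Their median was 170.3 pooled, 48.1 in replicate 1 and 128 in replicate 2. Members without it had medians of 128 pooled, 38.3 in replicate 1 and 97.1 in replicate 2. With members split by pooled signal into 4 groups from low to high, the core was at 18 of 79 (22.8%), 22 of 78 (28.2%), 22 of 78 (28.2%) and 42 of 79 (53.2%). At summits in repeat-marked bases it was present in 32 of 75 shared windows (42.7%) and 69 of 144 single-gene windows (47.9%). At other summits it was present in 72 of 239 shared windows (30.1%) and 188 of 456 single-gene windows (41.2%).

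A difference in the core between divergent and same-strand members did not pass the test. It lay at 95 of 300 divergent (31.7%, interval 26.4 to 37.3%) and 7 of 12 same-strand summits (58.3%, 27.7 to 84.8%), an odds ratio of 0.331 (Fisher's exact adjusted p = 0.105). With the longer windows (2000 bp before to 500 bp past the 5′ end) it lay on the other side of 1, at 1.19 (Fisher's exact adjusted p = 0.666). Differences in base composition and repeats did not pass the test either. GC was above the promoter median of 47% in 137 of 314 shared (43.6%) and 279 of 600 single-gene windows (46.5%; Fisher's exact adjusted p = 0.574, odds ratio 0.891). Repeat-marked bases lay at 75 shared (23.9%) and 144 single-gene summits (24%; Fisher's exact adjusted p = 1, odds ratio 0.994).

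A scan of all 2080 6-mers with strands collapsed found 2 that set shared summits apart from single-gene summits. At a Benjamini-Hochberg adjusted p below 0.05, 2 of 2080 were called (0.0962%), both more frequent in shared promoters, and 180 had an unadjusted p below 0.05. ACCGTA came first, in the windows of 38 of 314 members (12.1%, interval 8.71 to 16.2%) and of 13 of 600 single-gene summits (2.17%, 1.16 to 3.68%), an odds ratio of 6.22 (Fisher's exact adjusted p = 4.50e-06). AAACCG, which shares the letters ACCG with it, was in 34 (10.8%) and 19 (3.17%), an odds ratio of 3.71 (Fisher's exact adjusted p = 0.00840), and 5 of these 34 members held ACCGTA too. The next by p, none of them called, were ATAGAA at 2.23% of shared and 8.67% of single-gene summits (adjusted p = 0.0655), CGCTCC at 14.01% of shared and 6.33% of single-gene summits (0.112) and GCCGCA at 12.1% of shared and 5.17% of single-gene summits (0.126), all by Fisher's exact test. The odds ratio of ACCGTA lay between 3.47 and 11.8 in the other settings tried and passed in each. Those settings reuse much the same peaks, so they are not independent of the scan. AAACCG was lost, leaving 1 6-mer called, with repeat-marked summits left out and with summits within 300 bp of a 5′ end alone, and 6 were called without replicate 1.

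ACCGTA was less frequent in shared promoter sequence at large than at the members' summits. It lay near 3.18% of all positions in shared and 2.68% of those in single-gene promoter sequence. It was in 1.59% of the flanks of members and 3.08% of the flanks of single-gene summits. Sub-threshold regions had it in 48 of 956 shared windows (5.02%, interval 3.72 to 6.60%) and 153 of 5380 single-gene windows (2.84%, 2.42 to 3.32%). Of its 811 copies in shared promoter sequence, 39 had an IDR summit within 50 bp (4.81%, 3.44 to 6.52%), against 18 of 5599 copies in single-gene sequence (0.321%, 0.191 to 0.508%). These shares count again the summit windows from which the 6-mer was picked, so they are no separate evidence. They also do not allow for the higher summit density of shared sequence, 133 per Mb against 31.4 in single-gene sequence. Which protein binds this 6-mer is not known from these data.

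**Figure D5:**
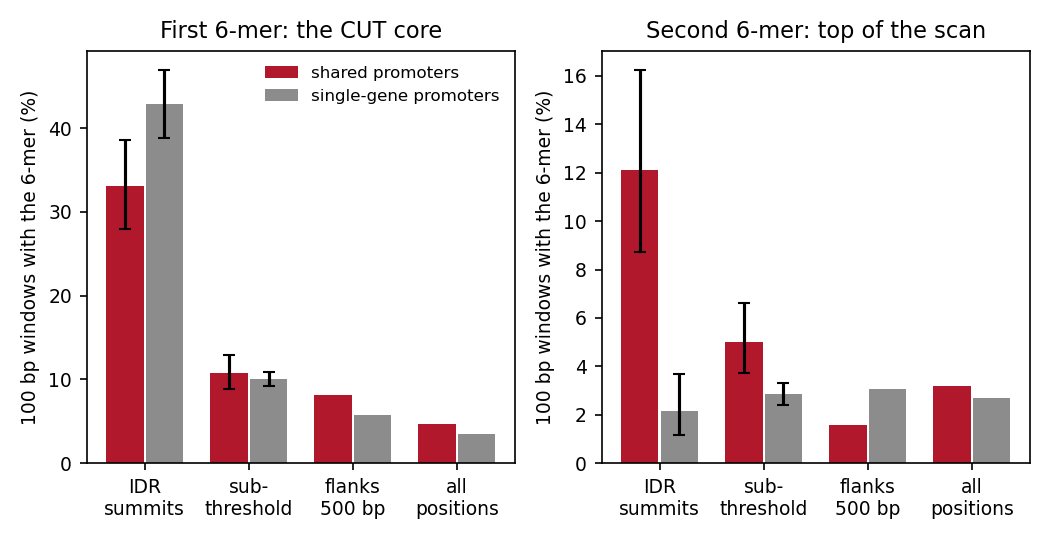
Share of 100 bp windows that hold the CUT core (left) or the first 6-mer of the scan (right), in percent, at IDR summits, sub-threshold regions, flanks 500 bp away and all promoter positions, for shared (red, left) and single-gene promoters (grey, right); bars on the first 2 pairs are 95% exact binomial intervals. The core is at 33.1% of shared and 42.8% of single-gene summits, the other 6-mer at 12.1% of shared and 2.17% of single-gene summits.

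The 38 members with ACCGTA were all divergent, as were 300 of the 314 members. Of the 38, 7 also held the CUT core (18.4%), against 97 of the 276 other members (35.1%), a split that was not tested. Their signals spanned nearly the whole range, from 85.2 to 702, with a median of 138 against 142 for the other members, and 26 of the 38 were in both replicates' top lists. The copy lay a median of 31 bp from the summit. In the sequences above, the ACCGTA of ZK643.2/ZK643.5 and spk-1/rheb-1 (an SR protein kinase gene and a Rheb GTPase gene; pooled signal 382, 111 in replicate 1 and 273 in replicate 2) stands beside a CUT core, while cap-2/gmps-1 and rpl-15/K11H12.8 hold no ATCGAT. The printed sequences of cap-2/gmps-1 and rsp-1/rsp-2 do hold ATCAAT, which reads ATTGAT on the other strand.

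Of the gene groups examined, ribosomal protein genes had the largest share in shared promoters. Of 78 ribosomal protein genes, 21 had a member in the window (26.9%), against 3.22% of all protein-coding genes. The groups were made by gene name with earlier results of these data known, so counts are given with no test, and nothing is claimed as particular to a group. After rpl-23/swp-1, the strongest were ify-1/rpl-22 (pooled signal 447, replicate 1 110.5, replicate 2 345), where ify-1 encodes securin, and rpl-15/K11H12.8 (pooled 292, replicate 1 78.6, replicate 2 216). Then came calf-1/rpl-2 (273), where calf-1 is needed to bring calcium channels to synapses, aps-3/rpl-17 (271), with a clathrin-type adaptor gene, and ska-3/rps-12 (263), with a gene of the spindle attachment complex. Of the 21 members, 3 held the CUT core and 7 held ACCGTA, against 104 and 38 of all 314 members. In both top lists were 18 of the 21. Their median signal was 172, against 141 over all members.

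Other genes for making and handling RNA and protein were also found. Among translation factor genes, 9 of 39 lay at members (23.1%), led by ifg-1, for eIF4G (240.0), eif-1 (186) and eif-3.H (173); 4 of their 9 members held ACCGTA. Among spliceosome and hnRNP genes it was 9 of 34 (26.5%), led by hrpf-1, rsp-1/rsp-2 and prp-8, which encodes the core splicing factor PRP8 (273), with ACCGTA at 2 of 8 members. Genes of the mitochondrial ribosome had 8 of 70 (11.4%), led by mrps-28 (333), mrpl-45 (279) and mrpl-40 (264). Mediator, TFIID and RNA polymerase genes had 7 of 57 (12.3%), led by mdt-19, taf-5 (233.9) and mdt-9 (181). Nuclear pore genes had 4 of 26 (15.4%), led by npp-14 (224), npp-7 (119.9) and npp-27 (105), and proteasome genes 3 of 33 (9.09%), rpn-7 (163), rpn-2 (104) and rpn-3 (91.1). The 1 aminoacyl-tRNA synthetase gene of 31 was ears-2. ACCGTA was at 38 of all 314 members (12.1%). In other lists it was at 1 of 8 mitochondrial ribosome, 1 of 10 endosomal sorting, 2 of 3 respiratory chain, 2 of 5 lin and 1 of 2 histone members. It was at 0 of 7 Mediator, TFIID and RNA polymerase members, 0 of 7 Rab and Arf members and 0 of 5 pan-neuronal members. The remaining lists named here had 0 as well, and no list was tested for it.

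Genes for membrane traffic and other cell functions followed. Endosomal sorting genes had 9 of 38 (23.7%), led by vps-22 (256), snx-13 (195) and vps-24 (186), and vps-50/cey-4 held 2 members. Rab and Arf GTPase genes had 7 of 29 (24.1%), led by arf-6 (366), rab-18 (336) and rab-5 (149). Vacuolar ATPase genes had 3 of 20 (15%), vha-8 (170.1), vha-17 (167) and vha-1 (138). Respiratory chain genes had 3 of 39 (7.69%), cox-6C (196), ucr-2.1 (112) and atp-1 (104), and ubiquitin conjugation genes 2 of 42 (4.76%), ubc-20 (151) and ubc-19 (104.5). Kinesin, dynein and tubulin genes had 4 of 82 (4.88%), led by klp-11, ift-43 (144) and klp-18 (101).

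The pan-neuronal effector genes had 5 of 51 in shared promoters (9.80%), and 17 of 51 with single-gene promoters counted too (33.3%), against 6.12% of all protein-coding genes. By that second count ribosomal protein genes had 38.5%, translation factor genes 35.9% and vacuolar ATPase genes 35%. Spliceosome and hnRNP genes had 32.4% and endosomal sorting genes 31.6%. The other lists named here ran from 2.60% (nuclear receptors) to 27.6% (Rab and Arf GTPases). Besides unc-69, the pan-neuronal genes in shared promoters were nsf-1, for the ATPase that takes apart SNARE complexes, beside the RNA-binding gene adr-1 on chromosome I from 7772577 to 7772837 (pooled signal 446, replicate 1 98.3, replicate 2 345). The third was sbt-1, for the 7B2 chaperone of neuropeptide processing, beside num-1, for Numb, on chromosome V from 20828919 to 20829181 (pooled 418, replicate 1 118.5, replicate 2 301). The other two were ric-19, a gene of dense-core vesicle maturation, beside pmlr-1 (pooled 222, replicate 1 55.6, replicate 2 170.3), and dnj-14, for a synaptic co-chaperone, beside glit-1 (pooled 131, replicate 1 51.1, replicate 2 72.9). All 5 were in both top lists, and sbt-1/num-1, printed above, was the only one with the CUT core. In each case the other gene is not in the pan-neuronal list.

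Nuclear receptor genes, a large family, had 2 of 269 (0.743%), nhr-47 (309) and nhr-142 (90.6). Homeobox genes of the ceh class had 2 of 63 (3.17%), ceh-38 and ceh-100 (97.7). The lin class, named for cell lineage defects, had 5 of 47 (10.6%), led by lin-38 (197), lin-7 (166) and lin-35, the Retinoblastoma gene (151). Histone genes had 4 of 72 (5.56%), at 2 members with a pair of histone genes each, his-35/his-41/C50F4.6 (157) and his-68/his-67/alg-5 (115). Near-identical histone copies may share reads, so these are uncertain.

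Summits near tRNA genes were left out by definition. They numbered 4 in shared windows, at C28G1.2/sec-15 (315.1), gcy-33/cpr-9 (315.06), lev-9/mom-1 (255) and rocf-1/pqn-71 (147). With them and their single-gene counterparts kept, 318 of 943 promoter summits were shared, and the excess over shared bases was 3.07-fold.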

How the data were processed

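ChIP-seq peak lists in ce11 coordinates were used for both replicates, for the replicates pooled and for the IDR peaks. The authors made the lists, background regions included, from the alignments of each replicate and of both together, with the same further input, and took the IDR peaks from them, per the deposited read-me files. Each region's signal is the authors' deposited value. Its scale, the IDR threshold, the peak caller and the aligner are not given in the sources used. Signals are compared within a list only. The ce10 lists were not used.

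Summits were placed on the WBcel235 reference with 19973 protein-coding and 612 tRNA genes of Ensembl release 115 on 6 nuclear chromosomes. Summit shares were set against shares of promoter bases with exact binomial tests and between sets with Fisher's exact tests, two-sided, with Benjamini-Hochberg adjustment over 13 tests, and separately over 2080 6-mers. Motifs were searched on both strands in 100 bp around the summit. Intervals are 95% Clopper-Pearson for shares and exact Poisson for densities, and cover counting only. Summits of different lists were matched within 100 bp. Sub-threshold regions lay over 500 bp from any IDR summit.

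Members, lists, tests and alternatives were chosen with earlier results of these data known. Named were the 10 divergent and 6 same-strand members with the highest pooled signal, all members with a pan-neuronal gene, up to 6 with a ribosomal protein gene and up to 3 of each other list, members with genes of 1 list on both sides, those next to the window limit, the lowest member and the 5 6-mers with the smallest p. Named after their values were seen were spk-1/rheb-1, vps-50/cey-4, the opposite-strand overlapping members, the member with 4 genes and those near tRNA genes. The result of 1 gene list is not reported here. Alternatives were the upper 920 peaks by signal, each replicate alone, other windows and 5′ ends of all transcripts. Further alternatives were other motif widths and flanks, ATTGAT counted beside ATCGAT, and summits in repeats, near tRNA genes or near stronger summits kept or left out. Code was tested on simulated data with Python 3.11.15, numpy 2.4.6, pandas 2.3.3 and scipy 1.17.1; figures used matplotlib 3.10.9.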

Additional observations from a re-analysis of the deposited data

How the results depend on the processing

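Of 155 alternative values, 135 kept their direction and their side of the threshold, 13 changed direction, 4 lost the call and 3 counts moved by more than 1.5 times. The 13 belong to 5 results, and none was past the threshold in the main or the alternative setting. The lower share of the CUT core at shared than at single-gene summits had an odds ratio of 0.661; it was 0.669 among the 920 peaks with the highest signal (Fisher's exact adjusted p = 0.0915), 0.731 with a 200 bp motif window (adjusted p = 0.0559), and 0.583 to 0.726 with 1 replicate left out, where only the value without replicate 2 missed the threshold (adjusted p = 0.0668). The ratio for the central 33.3% of the gap, 1.26, was 1.05 with the longest windows, 2000 bp before to 500 bp past the 5′ end (exact binomial adjusted p = 0.648). It was 1.22 in gaps of at most 1000 bp, where all of the gap was eligible (exact binomial adjusted p = 0.0476). Of 6-mers, 2 were called; it was 1 with repeat-masked summits left out, 1 within 300 bp of the nearest 5′ end and 2 to 6 with 1 replicate left out. The values that changed direction are odds ratios by Fisher's exact test. With the longest windows, that of the core in divergent over same-strand members was 1.19 (0.331 in the report), of signal above the median in the same groups 1.66 (0.493), of signal in shared over single-gene promoters 0.797 (1.02) and of presence in both top lists 0.831 (1.05). Signal in divergent over same-strand members was 0.729 without replicate 1 and 1.11 without replicate 2. Signal in shared over single-gene promoters was 0.944 in the upper 920 peaks and 0.895 with repeat-masked summits left out, and presence in both top lists was 0.997 with 500 bp windows. Repeats at shared over single-gene summits (0.994) were 1.17 in the upper 920 peaks, 1.07 to 1.18 with 1 replicate left out, 1.02 with 500 bp windows and 1.004 with summits near tRNA genes kept. Causes of these changes were not tested.

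The excess of summits in shared sequence stayed between 2.02-fold (the longest windows) and 3.88-fold (500 bp before to 100 bp past). Replicate labels give 1 group, so no paired analysis was possible because no groups were compared. With no read numbers, what depth limits cannot be told, and with 12 same-strand members only wide differences from divergent ones were detectable.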
